A study of Homo sapiens with 9 samples.

Results

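The members are 10 genes of the tight junction: the claudins CLDN1, CLDN3, CLDN4, CLDN7, CLDN11, CLDN12 and CLDN15, the membrane proteins OCLN and MARVELD2, and the scaffold TJP1. They were picked by gene symbol, in a choice made with earlier results of these data known. They make up 10 of the 58884 genes in the deposited table. A filter on low counts kept 9 of them, together with 13001 genes in all, and CLDN3 was not kept. The filter asked for more than 49.24 normalized counts in at least 1 library, so CLDN11 was kept through LM2, the line in which it was high, and each gene is therefore described by its own values.

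Tight junctions seal the gap between neighbouring epithelial cells near their apical border. Claudins are small membrane proteins whose strands span that gap, and the set of claudins a cell makes decides which ions can pass between cells. OCLN (occludin) and MARVELD2 (tricellulin) are MARVEL-domain proteins of the same strands, tricellulin mainly where 3 cells meet, and TJP1 (ZO-1) is a PDZ-domain scaffold that ties the strands to actin. Low expression of claudins is the trait that gave the claudin-low class of breast cancers its name.

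Poly(A) RNA was sequenced from the breast cancer cell line MDA-MB-231 (Par), which is classed as claudin-low, and from a lung metastatic (LM2) and a brain metastatic (BrM2) sub-population of it that had been selected in animals. All 3 were grown untreated as monolayers in DMEM with 10% FBS, and each was harvested in 3 biological replicates at different passages. Each sub-population is 1 selected derivative of 1 line, so differences between lines are differences between these derivatives, not between lung and brain metastases in general. In bulk RNA, fewer cells that express a gene and less RNA per cell cannot be told apart.

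Counts on genes totalled 19.88 M to 23.95 M per library in Par, 23.58 M to 24.51 M in LM2 and 14.37 M to 22.06 M in BrM2. Levels are given as CPM, counts scaled by edgeR to a common TMM-normalized library size, and a count of 3 corresponds to 0.115 to 0.222 CPM. Libraries that carry 1 replicate number moved together across lines, and the first replicate of every line stood apart from the other two for several members, which is given with each gene. The cells are labelled mammary epithelial. Of 8 epithelial markers, 5 were tested, and the keratin KRT8 averaged 853, 516 and 509 CPM in Par, LM2 and BrM2, whereas the epithelial cadherin CDH1 averaged 1.20, 0.345 and 0.432 CPM and GRHL2 had at most 7 counts. The summed level of the 8 epithelial markers was 1073 to 2108 CPM in Par, 614 to 1658 CPM in LM2 and 757 to 1667 CPM in BrM2, and is mostly KRT8 and KRT18. Of the 5 tested, KRT19 fell in LM2 (206, 45.5 and 191 CPM, log2 fold change −2.18, edgeR adjusted p = 0.0173), and the splicing factor ESRP2 fell in LM2 (−1.63, 0.00237) and rose in BrM2 (0.83, 0.0335). Of 6 mesenchymal markers 4 were tested. VIM and SPARC rose in both LM2 (log2 fold changes 1.08 and 7.81, edgeR adjusted p = 0.0196 and 8.5e-05) and BrM2 (1.05 and 3.19, 0.0163 and 0.00122), FN1 fell in BrM2 (−1.61, 0.000411), and ZEB1 passed in no comparison. Their summed level was 1541 to 1810 CPM in Par, 3006 to 3678 CPM in LM2 and 1603 to 2179 CPM in BrM2, and the part of these markers in the members' differences was not tested. Summed leukocyte and endothelial markers stayed at or below 4.78 and 13.1 CPM in every library. Summed fibroblast markers were 29.4 to 42.1 CPM in Par, 41.2 to 61.4 CPM in LM2 and 4.77 to 11.5 CPM in BrM2. Of these 6 markers 2 were tested. COL1A1 rose in LM2 (log2 fold change 2.67, edgeR adjusted p = 0.00259) and did not pass in BrM2 against Par (0.16, 0.860). COL1A2 fell in LM2 (−2.27, 0.00185) and in BrM2 (−10.2, 2.5e-05), where it held at most 0.0442 CPM.

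The regions just before the start of the 4 genes that passed a test in at least 1 comparison below are shown first, since the text returns to them. Each runs 5′ to 3′ on the strand of its gene and ends at the base before the annotated start, 250 bases in all, taken from RefSeq in GRCh38.p14. Capitals mark a GC box (GGGCGG or CCGCCC) or the E-box that SNAI and ZEB repressors can bind (CACCTG or CAGGTG), searched on both strands. CLDN4 lies at chr7:73830746-73830995 on the plus strand, CLDN1 at chr3:190322447-190322696 on the minus strand, OCLN at chr5:69492297-69492546 on the plus strand and CLDN11 at chr3:170418618-170418867 on the plus strand.
CLDN4: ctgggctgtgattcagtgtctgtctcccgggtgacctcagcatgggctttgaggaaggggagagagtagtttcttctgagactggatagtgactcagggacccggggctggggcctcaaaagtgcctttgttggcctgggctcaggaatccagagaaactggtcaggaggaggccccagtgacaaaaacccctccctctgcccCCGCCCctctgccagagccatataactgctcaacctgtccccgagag
CLDN1: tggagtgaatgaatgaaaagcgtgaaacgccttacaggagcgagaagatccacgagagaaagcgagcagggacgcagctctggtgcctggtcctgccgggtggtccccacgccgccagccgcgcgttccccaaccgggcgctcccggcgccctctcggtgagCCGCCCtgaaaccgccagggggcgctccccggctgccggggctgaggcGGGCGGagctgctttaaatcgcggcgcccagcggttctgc
OCLN: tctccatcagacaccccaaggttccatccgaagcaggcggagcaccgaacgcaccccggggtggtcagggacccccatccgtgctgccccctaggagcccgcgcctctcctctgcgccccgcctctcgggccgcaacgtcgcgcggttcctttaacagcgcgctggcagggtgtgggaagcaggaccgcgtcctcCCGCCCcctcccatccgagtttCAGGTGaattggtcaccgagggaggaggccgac
CLDN11: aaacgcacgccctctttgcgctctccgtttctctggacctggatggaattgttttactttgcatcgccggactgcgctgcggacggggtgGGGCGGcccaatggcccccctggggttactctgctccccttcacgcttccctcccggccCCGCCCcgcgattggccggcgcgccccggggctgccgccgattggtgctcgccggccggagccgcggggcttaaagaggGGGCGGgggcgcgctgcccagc
Of these windows, OCLN holds an E-box, 33 bases before its start, and CLDN4, CLDN1 and CLDN11 hold none of these letters. Over all 10 members, each of which had an entry, 2 hold an E-box (OCLN and TJP1) against 17.5% of 35116 human windows of the same length. The start used for TJP1 did not match an annotated transcript in a check of the starts. A GC box is present in 8 members, with 1 in CLDN4, 2 in CLDN1, 1 in OCLN and 3 in CLDN11, against 42.6% of all windows. The TATA box (TATAAA or TTTATA, 10.7% of windows) and the GRHL motif (AACCGGTT, 0.117% of windows) are in none of the 10. These are matches of letters only.

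Against Par, 2 of the 9 tested members passed the threshold of an adjusted p of 0.05 in LM2, where 8.65% of all tested genes did. Of these 2, 1 was higher and 1 lower, against 4.17% and 4.48% of genes. In BrM2, 4 of 9 did against a background of 13.2%, with 2 higher (6.25% of genes) and 2 lower (6.99%). Between BrM2 and LM2, 3 of 9 passed against 8.08%, with 2 higher (4.08% of genes) and 1 lower (4%) in BrM2. The libraries of the lines compared did not overlap for 5 of 9 members in each of the 3 comparisons, against 25.1% of genes for LM2 and Par, 31.3% for BrM2 and Par, and 23.1% for BrM2 and LM2. The median log2 fold change of the 9 members was −0.25, −0.02 and 0.15 in these comparisons, and that of all tested genes 0.01, −0.02 and −0.03. The members that passed were CLDN4, CLDN11, CLDN1 and OCLN. Tests are edgeR's 2-sided quasi-likelihood test with Benjamini-Hochberg adjustment over all tested genes, and the comparisons of LM2 and BrM2 with Par share the Par libraries. With the replicate number as a block, 4 members passed for LM2 and Par where 34.5% of genes did, 4 for BrM2 and Par where 42.7% did, and 5 for BrM2 and LM2 where 37.5% did. Without all 3 libraries numbered 2, no member passed in any comparison by edgeR, while 2, 4 and 3 had an unadjusted p under 0.05. Without the 3 libraries numbered 3, none passed against Par, with 2 and 4 at an unadjusted p under 0.05, and 1 passed for BrM2 and LM2.

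**Figure D1:**
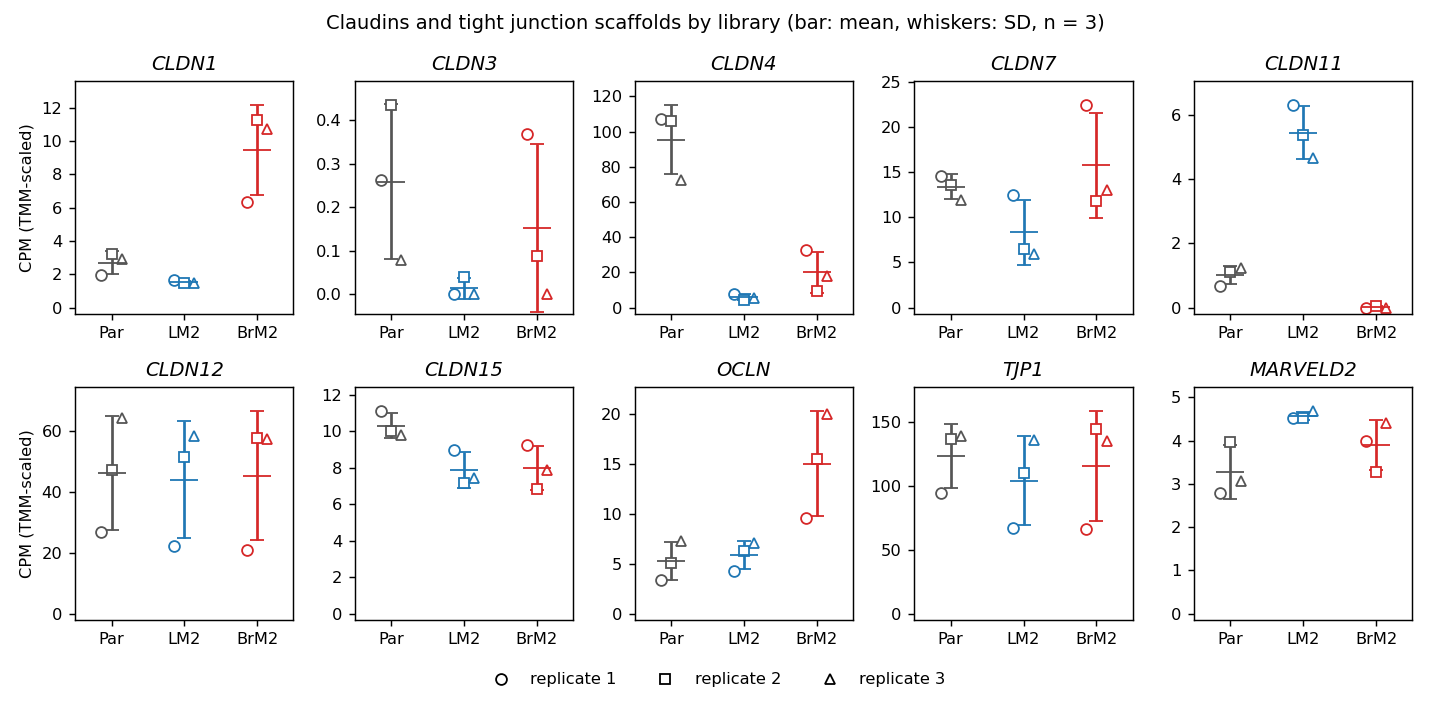
CPM of each of the 10 members in the 9 libraries, with 1 panel per gene and its own linear axis. Points are libraries with a shape for each replicate number, and the line and whisker of each group are the mean and SD of 3 replicates. CLDN4 is highest in Par, CLDN11 in LM2, and CLDN1 and OCLN in BrM2, while the points of CLDN12 and TJP1 overlap between all 3 lines.

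CLDN4, a claudin of many simple epithelia, fell in both LM2 and BrM2. The Par libraries held 107, 106 and 72.7 CPM in the order of replicates 1 to 3, the LM2 libraries 7.75, 4.53 and 5.25 CPM, and the BrM2 libraries 32.7, 9.54 and 17.8 CPM. Every Par library was above every BrM2 library, and every BrM2 library was above every LM2 library. In LM2 the mean was 16.3-fold below Par (95.4 ± 19.6 against 5.84 ± 1.69 CPM, SD, n = 3), with a log2 fold change of −4.03 (SE 0.47, edgeR adjusted p = 0.00105). In BrM2 it was 4.77-fold below Par, at 20.01 ± 11.7 CPM, with a log2 fold change of −2.26 (SE 0.44, edgeR adjusted p = 0.00926). This call was lost by a small margin without BrM2 replicate 3 (edgeR adjusted p = 0.0513). The mean in BrM2 was 3.43-fold above LM2, with a log2 fold change of 1.77 (SE 0.43, edgeR adjusted p = 0.0388). That difference kept its call only without LM2 replicate 1 or without BrM2 replicate 2, and lost it in each of the 7 fits that left out another library, with an adjusted p of up to 0.16. With the replicate block, the edgeR adjusted p was 3.59e-06 for LM2 and Par, 5.75e-05 for BrM2 and Par, and 0.00103 for BrM2 and LM2. In each line the first replicate was the highest, by 0.28 (Par), 0.66 (LM2) and 1.32 (BrM2) on the log2 scale against the mean of replicates 2 and 3. CLDN4 is at chr7:73830996-73832690 in GRCh38.p14, and its window above carries 1 GC box and no E-box.

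CLDN3, another claudin of simple epithelia, lies 60.7 kb from CLDN4, with its gene at chr7:73768997-73770270. It was near the detection limit in every library, with 5, 9 and 2 counts in Par, 0, 1 and 0 in LM2, and 5, 2 and 0 in BrM2. Over the 3 libraries of each line, its level in Par was 17.4 times that in LM2, with a 95% counting interval of 2.7 to 729 (exact, counting error only). A test without the filter gave an edgeR adjusted p of 0.0991 for LM2 and Par, 0.681 for BrM2 and Par and 0.396 for BrM2 and LM2. All LM2 libraries were below all Par libraries, but no test between replicates passed.

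CLDN11, the claudin of myelin and of Sertoli cell junctions, differed between all 3 lines. The Par libraries had 13, 23 and 31 counts (0.683, 1.11 and 1.22 CPM), and the LM2 libraries 127, 132 and 122 counts (6.31, 5.39 and 4.67 CPM). In BrM2 it had 0, 1 and 0 counts, which is below the level of 3 counts. The LM2 libraries were thus all above the Par libraries, and the BrM2 libraries all below both. The mean of LM2 was 5.43-fold above Par, with a log2 fold change of 2.42 (SE 0.35, edgeR adjusted p = 0.00325). The level in Par was 58.7 times that in BrM2, with a 95% counting interval of 10.2 to 2350, and the test gave an edgeR adjusted p of 0.000791. Against LM2 the ratio was 307, with an interval of 54.8 to 12200 and an edgeR adjusted p of 0.000124. These intervals are wide because 1 count stands for BrM2. All 3 calls were kept in each of the 9 fits that left out 1 library. CLDN11 is at chr3:170418868-170434691, and its window holds 3 GC boxes. Its exons overlap those of ENSG00000285218 on the same strand by 15.8%, and no count was found here for that gene. Of its 50-base stretches, 14.8% occur in another gene (14.7% in ENSG00000285218). This is a share of annotated sequence, and the share of its counts affected was not measured.

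CLDN1, the claudin of the epidermal barrier, rose in BrM2. It held 1.94, 3.24 and 2.91 CPM in the Par libraries, 1.64, 1.47 and 1.46 CPM in LM2, and 6.35, 11.3 and 10.7 CPM in BrM2. The BrM2 libraries lay above all others, and the LM2 libraries below all others. The mean of BrM2 was 3.5-fold above Par (9.45 ± 2.697 against 2.699 ± 0.675 CPM, SD, n = 3), with a log2 fold change of 1.81 (SE 0.30, edgeR adjusted p = 0.00431). Against LM2 it was 6.21-fold higher, with a log2 fold change of 2.64 (SE 0.31, edgeR adjusted p = 0.00113). Both calls were kept in each of the 9 fits without 1 library. The LM2 libraries averaged 1.52 ± 0.102 CPM, with a log2 fold change of −0.83 against Par (95% interval −1.52 to −0.14), which did not pass (edgeR adjusted p = 0.155) but did with the replicate block (0.0246). CLDN1 is at chr3:190305707-190322446, on the same chromosome as CLDN11, and its window holds 2 GC boxes.

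OCLN, which encodes occludin, also rose in BrM2 against Par. Its level was 3.42, 5.13 and 7.27 CPM in Par, 4.32, 6.33 and 7.09 CPM in LM2, and 9.60, 15.5 and 20.03 CPM in BrM2. The BrM2 libraries were above all libraries of Par and LM2, which overlapped each other, and in every line replicate 1 was the lowest. The mean of BrM2 was 2.86-fold above Par, with a log2 fold change of 1.51 (SE 0.37, edgeR adjusted p = 0.0276). This call was lost without Par replicate 1, Par replicate 2, LM2 replicate 2, BrM2 replicate 2 or BrM2 replicate 3, with an adjusted p of up to 0.115. With the replicate block the difference from Par passed (edgeR adjusted p = 3.07e-05). Within replicate numbers 1 to 3, BrM2 was above Par by 1.47, 1.58 and 1.45 on the log2 scale. Against LM2 the log2 fold change was 1.35 (SE 0.37, edgeR adjusted p = 0.0611), which passed with the replicate block (0.000114). LM2 and Par differed by 0.16 on the log2 scale (95% interval −0.67 to 0.99, edgeR adjusted p = 0.894). OCLN is at chr5:69492547-69558104. Of its transcripts' 50-base stretches, 6.09% occur in another gene, mostly the pseudogene OCLNP1 (4.6%). Part of its counts could thus be assigned to either, and the size of that part was not measured.

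MARVELD2, whose protein tricellulin sits at tricellular contacts, lies 48.2 kb from OCLN, at chr5:69415116-69444330. It held 2.78, 3.97 and 3.07 CPM in Par, 4.52, 4.53 and 4.67 CPM in LM2, and 3.99, 3.27 and 4.41 CPM in BrM2. All LM2 libraries lay above all others, by a margin that the test did not pass (log2 fold change against Par 0.48, 95% interval −0.04 to 1.0, edgeR adjusted p = 0.289). For BrM2 and Par the log2 fold change was 0.25 (edgeR adjusted p = 0.603). OCLN and its neighbour MARVELD2 thus had their highest mean levels in different lines.

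**Figure D2:**
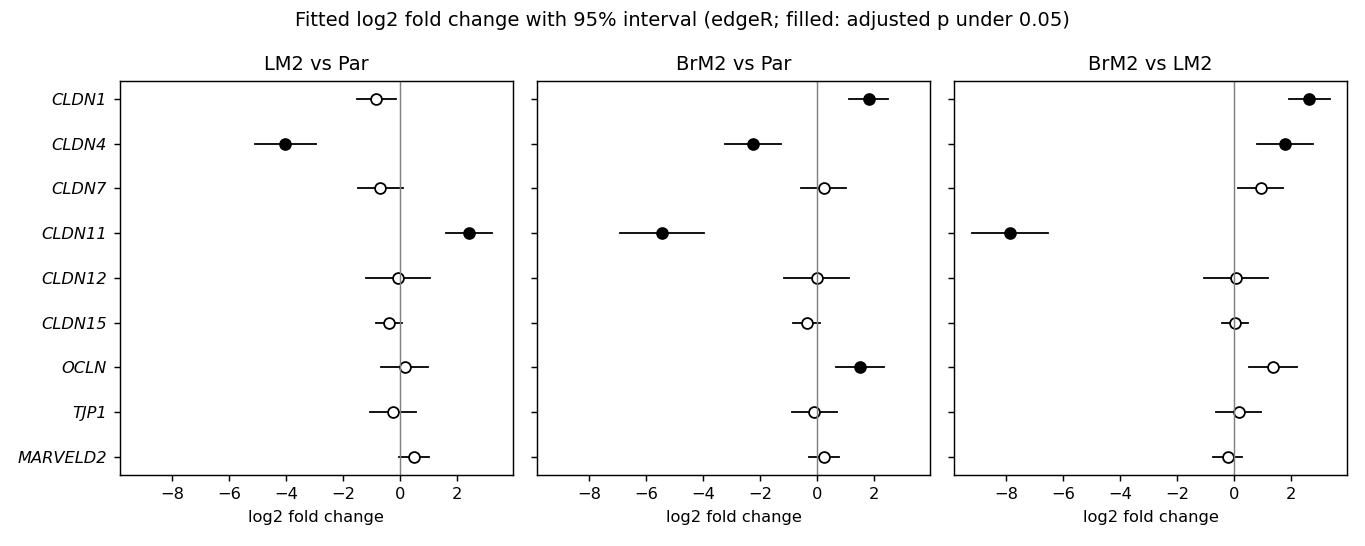
Log2 fold changes of the 9 tested members in the 3 comparisons, with 95% intervals from edgeR and filled circles for an adjusted p under 0.05. CLDN4 lies below 0 in LM2 and BrM2 against Par, CLDN11 lies above 0 in LM2 and below in BrM2, and the intervals of CLDN12, CLDN15, TJP1 and MARVELD2 include 0 in all comparisons. The fitted value of CLDN11 for BrM2 rests on 1 count.

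CLDN7, a claudin of simple epithelia like CLDN3 and CLDN4, passed in no comparison without the replicate block. It held 14.6, 13.6 and 11.95 CPM in Par, 12.4, 6.53 and 5.98 CPM in LM2, and 22.4, 11.8 and 13.0 CPM in BrM2. In LM2 and BrM2 the first replicate was above the other two, by 0.98 and 0.85 on the log2 scale, and the libraries overlapped in every comparison. Between BrM2 and LM2 it differed by 0.92 on the log2 scale (SE 0.35, edgeR adjusted p = 0.174), and 0.00326 with the block. The log2 fold change of LM2 against Par was −0.69 (95% interval −1.48 to 0.10, edgeR adjusted p = 0.332), and 0.00972 with the block. Without LM2 replicate 1, the difference of BrM2 and LM2 also passed without the block (edgeR adjusted p = 0.0373). The gene, at chr17:7259903-7263213, overlaps ENSG00000262302 on the same strand by 10.8% of its exons and ELP5 on the other strand by 38 exon bases, or 1.52%, and the strand counted is not given in the sources used here.

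CLDN15, which forms cation pores in the gut, held 11.1, 10.0 and 9.79 CPM in Par, 8.99, 7.18 and 7.43 CPM in LM2, and 9.23, 6.84 and 7.86 CPM in BrM2. Every Par library was above every library of LM2 and BrM2, by log2 fold changes of −0.39 (edgeR adjusted p = 0.354) and −0.37 (0.324) that did not pass. LM2 and BrM2 differed by 0.02, with a 95% interval of −0.45 to 0.48.

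CLDN12, a widely expressed claudin that lacks the PDZ-binding end of most others, and the scaffold TJP1 did not pass in any comparison. CLDN12 held 26.9, 47.2 and 64.4 CPM in Par, 22.2, 51.6 and 58.5 CPM in LM2, and 20.96, 57.7 and 57.6 CPM in BrM2. The means of 46.2, 44.1 and 45.4 CPM lay within 1 SD of each other. TJP1 held 94.3, 137 and 139 CPM in Par, 66.6, 110 and 135 CPM in LM2, and 65.9, 144 and 135 CPM in BrM2. Its log2 fold change was −0.25 (95% interval −1.05 to 0.56) for LM2 and Par, with an edgeR adjusted p of 0.811. For both genes, replicate 1 was the lowest library of every line. CLDN12 was lower in replicate 1 by 1.03 in Par, 1.31 in LM2 and 1.45 in BrM2 on the log2 scale, against the mean of the other two, and TJP1 by 0.55, 0.87 and 1.08. The 5th percentile of all tested genes for the same difference was −1.22 in Par, −1.71 in LM2 and −1.67 in BrM2, so neither gene was outside the bulk of genes. This difference within lines was larger than any difference of CLDN12 between lines. The exons of CLDN12 overlap those of PTTG1IP2 (7.92% of them), ENSG00000273299 (5.53%), GTPBP10 (5.17%) and CDK14 (3.0%) on the same strand. No count was found here for PTTG1IP2 or ENSG00000273299. GTPBP10 and CDK14 had mean counts of 393 and 399. Of the 50-base stretches of CLDN12, 15.1% occur in another gene. This is a share of annotated sequence, and the share of its counts affected was not measured.

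**Figure D3:**
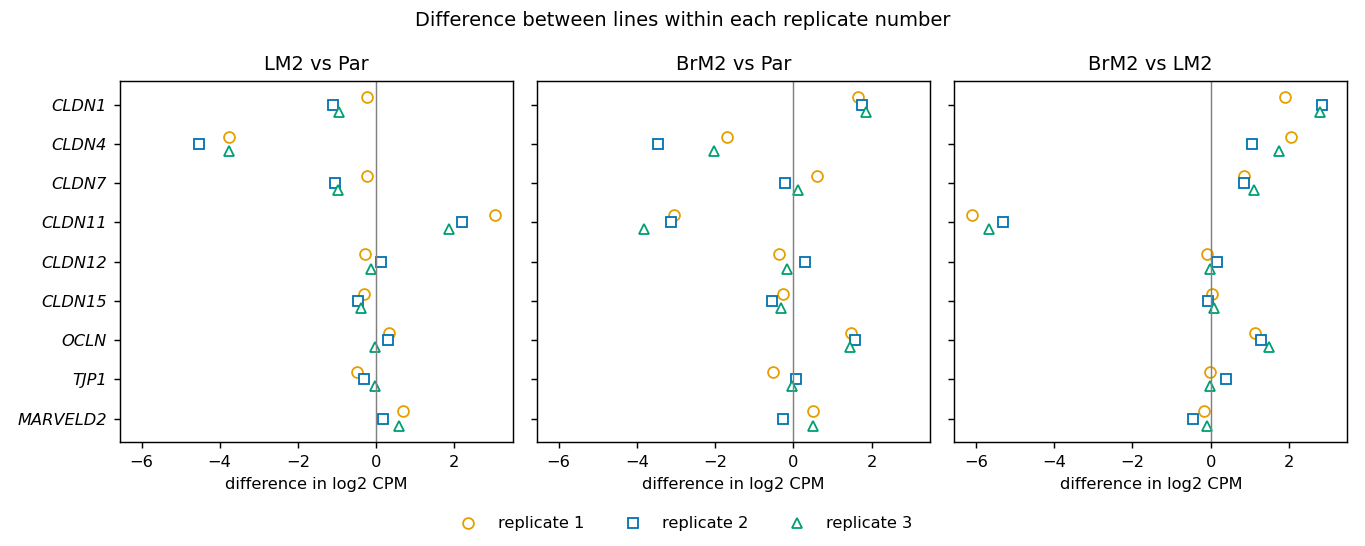
Difference in log2 CPM between lines within each replicate number, for the 9 tested members. Each point is the difference of the 2 libraries with 1 number, and its shape gives the number. CLDN4, CLDN11, CLDN1 and OCLN keep the direction of their differences from Par that passed in all 3 numbers.

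Levels of different claudins were compared per length of the union of a gene's exons (RPKM, here CPM per kilobase of exon). The 20 claudin genes with a count summed to 46.4 ± 3.41 RPKM in Par, 17.9 ± 0.76 in LM2 and 23.8 ± 1.76 in BrM2 (SD, n = 3), and the libraries of the 3 lines did not overlap. CLDN4 made up 43.4 ± 6.07% of this sum in Par, 7.0 ± 2.25% in LM2 and 17.5 ± 9.3% in BrM2. CLDN4 thus led the claudins in Par, and CLDN12 led by mean share in LM2 (36.4 ± 15.0%) and BrM2 (29.0 ± 14.6%). In replicate 1 of LM2 and of BrM2, CLDN7 led instead, with 28.9 and 35.6% against 19.2 and 12.4% for CLDN12. The mean share of CLDN7 was 11.6, 18.8 and 26.3%, and that of CLDN15 was 7.68, 15.3 and 11.6%. CLDN1 had 1.61% in Par, 2.35% in LM2 and 11.1 ± 3.76% in BrM2, and CLDN11 had 7.1 ± 1.35% in LM2 and 0.508% in Par. A share also moves with the sum: the mean level of CLDN12 was 44.1 to 46.2 CPM in the 3 lines, while its mean share was 15.1 to 36.4%. Among the 10 members on the same scale, CLDN4 ranked first in Par and TJP1 in LM2 and BrM2, whereas CLDN3 was among the last 2 in every line, with CLDN11 in Par and BrM2 and CLDN1 in LM2. With the length of the canonical transcript in place of all exons, the share of CLDN4 became 57.0, 10.6 and 25.1%, and that of CLDN1 in BrM2 6.24%. By that length CLDN4 led in replicate 1 of BrM2, with 38.2% against 28.7% for CLDN7.

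**Figure D4:**
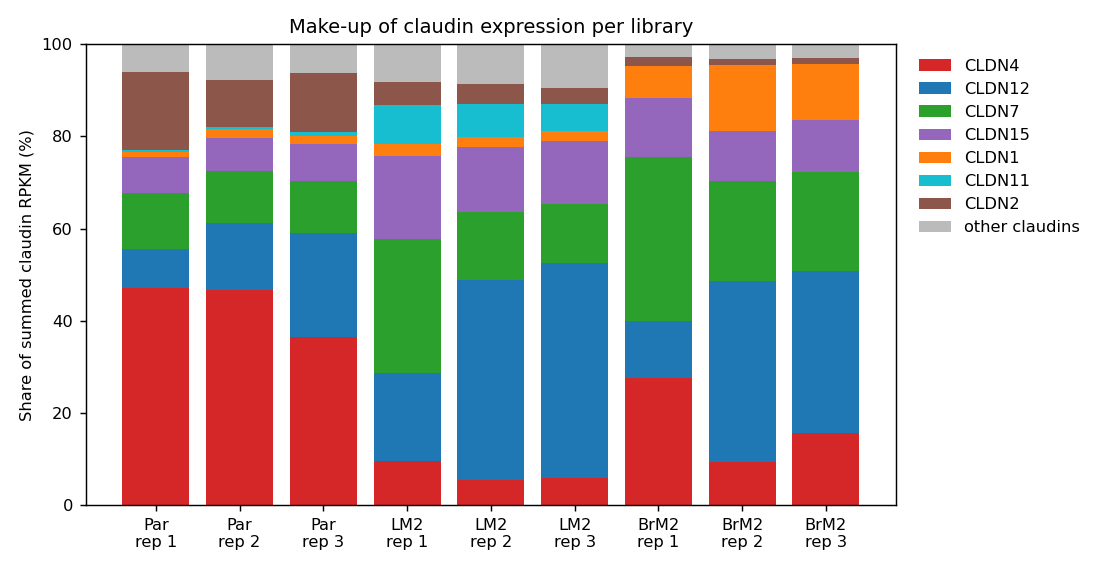
Share of each claudin in the summed claudin level (RPKM over the union of exons, in percent), for each of the 9 libraries as a stacked bar from 0 to 100%. The CLDN4 share is 36.4 to 47.2% in Par, 5.44 to 9.58% in LM2 and 9.31 to 27.6% in BrM2.

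Of 19 further genes, made up of claudins and the claudin-domain genes CLDND1 and CLDND2, 3 were tested. CLDN2 and CLDN23 fell in both LM2 and BrM2, where 4.48% and 6.99% of all tested genes were lower than in Par. The third, CLDND1, passed in no comparison without the replicate block. CLDN2, the cation pore of leaky epithelia, averaged 21.2, 2.57 and 1.23 CPM in Par, LM2 and BrM2, with log2 fold changes against Par of −3.04 (edgeR adjusted p = 0.000553) and −4.13 (0.000139). CLDN23 averaged 4.60, 1.999 and 0.245 CPM, with log2 fold changes of −1.20 (edgeR adjusted p = 0.0271) and −4.27 (0.000137). It passed the filter only through Par, the line in which it was high, so it is described by its own values. Between BrM2 and LM2, CLDN23 was lower by 3.07 (0.000864). Of the claudins that passed against Par, CLDN4, CLDN2 and CLDN23 thus fell in LM2 and BrM2, CLDN11 rose in LM2 and fell in BrM2, and CLDN1 rose in BrM2.

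The partners of the members in the junction were counted by role. Of 13 other membrane proteins of tight junctions, 7 were tested, and by edgeR none passed for LM2 or BrM2 against Par, with 3 and 1 at an unadjusted p under 0.05 and 1 and 0 by DESeq2. With the replicate block, 2 were higher and 1 lower in LM2, 4 higher and 1 lower in BrM2, and 3 higher and 1 lower in BrM2 than in LM2. The shares of all tested genes that passed with the block were 34.5%, 42.7% and 37.5%. ILDR2, an angulin of tricellular contacts, was lower in BrM2 than in LM2 (log2 fold change −0.85, edgeR adjusted p = 0.0276). Their median log2 fold change against Par was 0.23 in LM2 and 0.45 in BrM2. Of the cytoplasmic and polarity proteins, 26 of 28 were tested, with 1 higher and 2 lower in LM2, 3 higher and 2 lower in BrM2, and 2 higher in BrM2 than in LM2. The background shares are 8.65%, 13.2% and 8.08% of all genes, and the medians of the list were 0.05, 0.10 and 0.09. With the replicate block, 5 were higher and 6 lower in LM2, 8 higher and 5 lower in BrM2, and 6 higher and 3 lower in BrM2 than in LM2, where 34.5%, 42.7% and 37.5% of all genes passed.

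Among these proteins, cingulin and its paralogue, which bind ZO-1 and the cytoskeleton, moved differently. CGN averaged 2.90, 3.78 and 9.18 CPM in Par, LM2 and BrM2 and rose in BrM2 against Par (log2 fold change 1.66, edgeR adjusted p = 0.00548) and against LM2 (1.28, 0.0254). CGNL1 averaged 7.69, 1.89 and 2.96 CPM and fell in LM2 (−2.02, edgeR adjusted p = 0.00387) and in BrM2 (−1.38, 0.016). AMOT, an angiomotin that binds polarity proteins at junctions, had 8 counts over the 3 Par libraries and 0.163 to 0.69 CPM in LM2, and averaged 12.6 CPM in BrM2, the only line through which it passed the filter. Its level in BrM2 was 102 times that in Par, with a 95% counting interval of 51.4 to 237 (edgeR adjusted p = 0.000123). PATJ fell in BrM2 (−1.07, edgeR adjusted p = 0.0257), PARD3 rose there (0.56, 0.0377) and PARD6G rose in LM2 (0.91, 0.0302). The remaining call in LM2, PARD6B (−1.27, edgeR adjusted p = 0.0388), was named after its values were seen. Of 11 transcription factors known to repress or activate junction genes, 6 were tested and the epithelial factor ELF3 fell in BrM2 (−3.04, edgeR adjusted p = 0.0157). For LM2 against Par none of the 6 passed by edgeR, with 3 at an unadjusted p under 0.05 and 1 by DESeq2, and for BrM2 against LM2 none passed, with 2 and 1. With the replicate block, 2 were higher and 1 lower in LM2, 2 lower in BrM2, and 4 lower in BrM2 than in LM2. Of all tested genes, 34.5%, 42.7% and 37.5% passed with the block in these comparisons. SNAI1, SNAI2, ZEB1 and ZEB2, which bind the E-box, were all tested, and the one nearest to the threshold, named after the values were seen, was SNAI2 for BrM2 and LM2 (−0.89, edgeR adjusted p = 0.053).

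The 20 nearest tested genes around each member were examined to see whether its change was shared by its region. Around CLDN4, with ABHD11 and METTL27 as its nearest tested genes, their median log2 fold change was −0.53 in LM2 and −0.63 in BrM2 against Par, below the 0.01 and −0.02 of all genes, with a range of −1.75 to 0.44 in LM2. The LM2 value of CLDN4 lay below this range, and its BrM2 value inside the range of −3.25 to 0.11. Around CLDN15, on the same chromosome, the medians were −0.60 and −0.42, and around CLDN12 −0.21 and −0.56. For CLDN11, with SKIL and RPL22L1 nearest, the neighbours had medians of 0.03 and 0.06, and 1 of 20 was higher in LM2. Its rise in LM2 lay above their range of −4.23 to 1.40. Its fitted value in BrM2, −5.45, lay below their range of −4.24 to 1.295 and rests on 1 count. The neighbours of CLDN1, with P3H2 and IL1RAP nearest, had medians of 0.08 and 0.03, and its BrM2 value lay inside their range of −3.45 to 2.54. The value of OCLN in BrM2, 1.51, was above the highest of its neighbours, 0.84, and their median was 0.38.

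**Figure D5:**
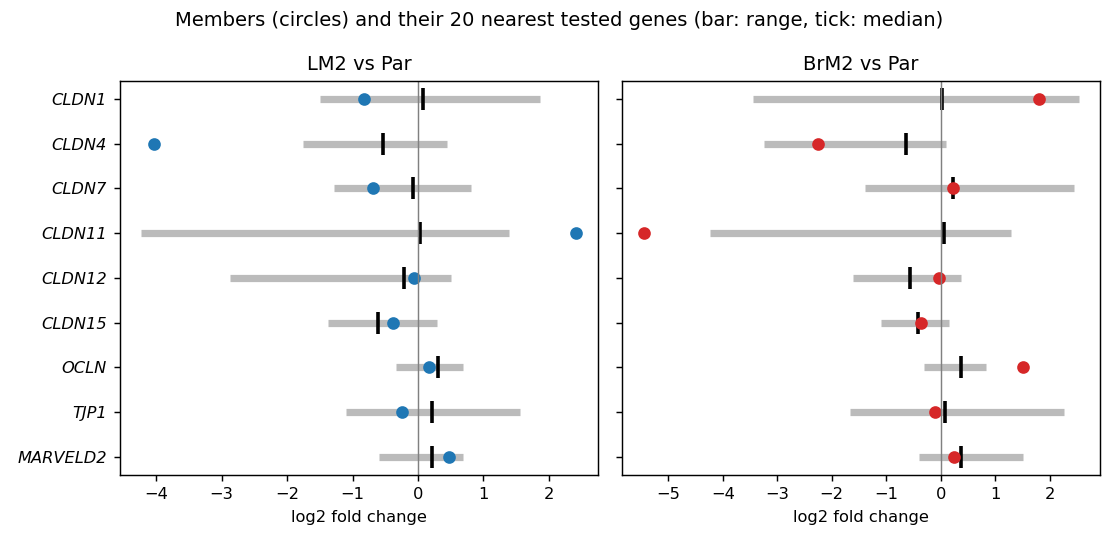
Log2 fold change against Par of each tested member and of its 20 nearest tested genes, in LM2 and in BrM2. Circles are members, bars the range and ticks the median of the neighbours, and the BrM2 circle of CLDN11 is a fitted value that rests on 1 count. The neighbours of CLDN4 and CLDN15 have medians below 0 in both lines. CLDN4 in LM2, CLDN11 in both lines and OCLN in BrM2 lie outside the range of their neighbours.

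For the 3 members with the smallest adjusted p, the genes with the most similar log2 CPM over the 9 libraries were found. The profile of CLDN11 was most like those of TSC22D1 (Pearson r = 0.99), EDNRB (0.988) and LINC01234 (0.982). The last of these averaged 4.80, 17.8 and 0.214 CPM in Par, LM2 and BrM2. CLDN4 was most like PLAAT3 (0.99), AKAP17A (0.987) and SUSD2 (0.985), and PLAAT3 averaged 123, 43.7 and 61.8 CPM. For CLDN1 they were ZNF300 (0.994), BCHE (0.992) and PDIA6 (0.99), and PDIA6 averaged 178, 152 and 256 CPM. These correlations describe 9 libraries that share lines and replicate numbers, and were the highest among 13001 genes.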

How the data were processed

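RNA-seq of 3 lines with 3 replicates each was used, grouped by the labels of the samples. The authors made stranded mRNA libraries, aligned paired-end reads to hg38 with STAR (2.7.0 in the submitters' processing notes), and deposited the raw count of each gene. They also deposited a table of their own DESeq2 comparisons, with log2 fold changes and adjusted p-values, which was not used. The study's methods name a GENCODE transcript set for the counts, and the strand counted is not given in the sources used here.

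Of 58887 rows, 3 repeated an identifier with the same counts, which left 58884 genes. A filter written after HTSFilter set 100 thresholds between 1 and 200 on the normalized count of a gene in its highest library, smoothed the Jaccard index with a loess span of 0.3 and kept 13001 genes above 49.24, which hold 99.64 to 99.77% of each library. Differential expression was tested with edgeR 4.0.16 (TMM factors, quasi-likelihood test, the 3 lines as groups, all 9 libraries), with Benjamini-Hochberg adjustment and a threshold of 0.05. Where no block is named, the p-values measure the spread between the replicates of each line, harvested at different passages. That spread includes what libraries with the same replicate number share across lines. Depth was 14.37 M to 24.51 M counts per library, and counting intervals are exact 95% intervals that cover counting error only. Libraries of 1 line all differed beyond sampling noise (chi-square per degree of freedom at least 18.3).

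The pairing of libraries by replicate number was examined in the data. Deviations of log2 CPM (prior count 2) from the line means correlated by 0.23 to 0.899 in all 9 pairs of libraries with the same number, and by −0.877 to 0.803 in 18 other pairs, so the numbers were taken as pairing them. The common dispersion was 0.11 without the number as a block and 0.0207 with it.

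Alternatives were relative log expression factors, no filter, DESeq2 1.42.0, the replicate block and fits without 1 library or 1 replicate number. Gene lengths, overlaps and shared 50-base stretches came from GENCODE annotation on another build, without coordinates. Positions and windows before gene starts came from RefSeq GRCh38.p14, in which 12076 tested genes (92.9%) were matched by symbol. The text names all members, up to 6 genes per list by smallest adjusted p, 3 genes most like each of 3 members, markers, and nearest genes. The members and lists were chosen with earlier results of these data known. Scripts were tested on simulated data. For edgeR these had the dispersion of the fit with the block and no replicate effect, so they do not give the power of the fits without the block. R 4.3.3, limma 3.58.1, Python 3.11.15, pandas 2.3.3, numpy 2.4.6 and matplotlib 3.10.9 were used.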

Additional observations from a re-analysis of the deposited data

Results flagged for a closer look

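For CLDN1 and CLDN11, the LM2 and BrM2 libraries differed from Par in opposite directions, and the difference between the 2 sub-populations was tested directly. CLDN1 was below Par in all LM2 libraries and above it in all BrM2 libraries, and BrM2 exceeded LM2 by 2.64 on the log2 scale (edgeR adjusted p = 0.00113). CLDN11 was above Par in all LM2 libraries and at 0, 1 and 0 counts in BrM2, with a fitted difference of −7.88 between BrM2 and LM2 (edgeR adjusted p = 0.000124) that depends on the prior count and is no bound. The decrease of CLDN1 in LM2 against Par did not itself pass without the replicate block.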

How the results depend on the processing

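With relative log expression factors or no filter on low counts, the counts of genes and members past the threshold stayed within 1.5 times those reported. DESeq2 gave 1885 genes for LM2 and Par and 1812 for BrM2 and LM2. The replicate block gave 4487, 5551 and 4880 genes for LM2 and Par, BrM2 and Par, and BrM2 and LM2, and 4 and 5 members for the first and last, and changed no member call other than those given in the report. Leaving out 1 library or 1 replicate number gave 70 to 4301, 158 to 5249 and 53 to 4240 genes, and 0 to 4, 0 to 4 and 0 to 5 members. The lowest gene counts came without replicate 2 and the highest without replicate 1, the members' counts of 0 came without replicate 2 or, against Par, without replicate 3, and the cause was not tested. The values that changed sign belong to members that did not pass, all in fits without 1 library or replicate number. Their log2 fold changes ranged from −0.34 to 0.25 for CLDN12 and from −0.069 to 0.47 for OCLN in LM2 against Par. In BrM2 against Par they ranged from −0.11 to 0.44 for CLDN7, −0.30 to 0.32 for CLDN12 and −0.29 to 0.18 for TJP1. In BrM2 against LM2 they ranged from −0.28 to 0.39 for CLDN12, −0.10 to 0.12 for CLDN15 and −0.090 to 0.43 for TJP1. OCLN passed for BrM2 and LM2 without the filter (adjusted p = 0.0227) and by DESeq2 (0.005). The 9 member calls kept direction and side of the threshold in 114 of their fits under all alternatives and lost the threshold in 30. The share of claudins by canonical transcript length was chosen after seeing the data. Depth limits CLDN3 and CLDN11 in BrM2, where counts of 0 to 9 leave wide intervals.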
